A study of Rattus norvegicus with 12 samples.

Results

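The genes described here copy DNA or prepare the cell to do so: they license replication origins, activate the replicative helicase, run the replication fork, supply deoxynucleotides, control entry into S phase or assemble chromatin on new DNA. The list held 45 rat genes, and a row counted as a member when its annotation gave exactly one of these symbols. Of the 45 listed genes, 43 had such a row, out of 18166 genes measured, and Rrm1 and Tk1 had none.

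Kidneys of 12 rats were profiled on expression arrays after ischemia-reperfusion injury, in a series on acute kidney injury. The labels give 4 groups of 3 animals, a placebo group and an anti-miR-182 group at day 2 after the injury and the same pair at day 7. All 12 animals had the injury, so the control group is the placebo group of the same day, and no uninjured kidney was analysed here. The sources used here do not give strain, sex, age, the inhibitor's dose or timing, or what the placebo was. The tissue label is kidney. One label speaks of a biopsy at zero hours, which goes against the day in each title, and groups were taken from the titles.

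Anti-miR-182 is an inhibitor of miR-182, a small RNA that lowers the output of messenger RNAs which pair with its seed. The mature sequence is shown because it is what the treatment was aimed at, with the seed, bases 2 to 8, in capitals. RefSeq places it on the GRCr8 assembly at chr4:59752249-59752273, minus strand.
rno-miR-182: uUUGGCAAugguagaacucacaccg

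In G1, the origin recognition complex with Cdc6 and Cdt1 loads the ring of Mcm2 to Mcm7 onto DNA. The kinase Cdc7 with its partner Dbf4, together with Mcm10, Cdc45 and the GINS complex, then turns the ring into a working helicase, and the fork is run by DNA polymerases, the sliding clamp Pcna and its loader. E2F transcription factors switch most of these genes on as cells pass into S phase, and in the kidney surviving tubule cells are known to divide after ischemic injury.

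The labelled tissue was checked first. The log2 signal of Lrp2, which encodes the proximal tubule receptor megalin, averaged 11.51 in placebo and 11.56 under anti-miR-182 at day 2, and 11.08 and 11.16 at day 7. Umod, the uromodulin gene of the thick ascending limb, averaged between 11.39 and 11.76 in the 4 groups. Pairs of arrays of 1 group correlated at 0.978 or more over all genes. The third anti-miR-182 array of day 2 stood apart from the others along the second principal component (-29.41, against -9.18 to 15.38 for the other 11 arrays), which carried 10.2% of the variance. The median gene differed by -0.18 (log2) between day 7 and day 2 in placebo and by -0.21 under anti-miR-182. The labels do not say whether both days were normalized together, so the day and a normalization run cannot be told apart, and comparisons of days are given below also after centring each array on its median and after joint quantile normalization.

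All 43 replication genes had lower mean signals at day 7 than at day 2 in the placebo groups, and 37 of them fell at a Benjamini-Hochberg adjusted p under 0.05 in limma, a linear model fitted here to all 18166 genes. Among all genes tested 23.7% fell by that rule, 4.22% rose, and 72% had a difference below 0. The median difference of the replication genes was -0.67 on the log2 scale, where a difference of 1 is a 2-fold change, and single members ran from -1.93 to -0.11. In 41 of 43 members every day 7 array was lower than every day 2 array, as was the case for 40% of all genes. Of the 43 members, 8 lay in the lowest 1% and 20 in the lowest 5% of all genes by their difference. In whole tissue, fewer cells in S phase and less of these RNAs per cell cannot be told apart.

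The downward shift of the whole table was set against the replication genes by rescaling the arrays. After centring each array on its median, 41 of 43 members were below 0 and 27 fell with a median of -0.52, and 9.62% of all genes fell. After quantile normalization of the 12 arrays together 24 of 43 fell with a median of -0.45, against 7.9% of all genes. The share of falls among all called genes was 84.9% as deposited, 54.2% after centring and 49.3% after quantile normalization. The 24 members called under all 3 scalings in placebo were Cdc6, Mcm4, Mcm5, Mcm6, Mcm7, Mcm10, Cdc45, Gins1, Gins4, Cdc7, Pola1, Pole, Pole2, Pcna, Rfc4, Rpa2, Rrm2, Tyms, E2f8, Ccne1, Ccne2, Chaf1a, Chaf1b and Uhrf1.

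**Figure D1:**
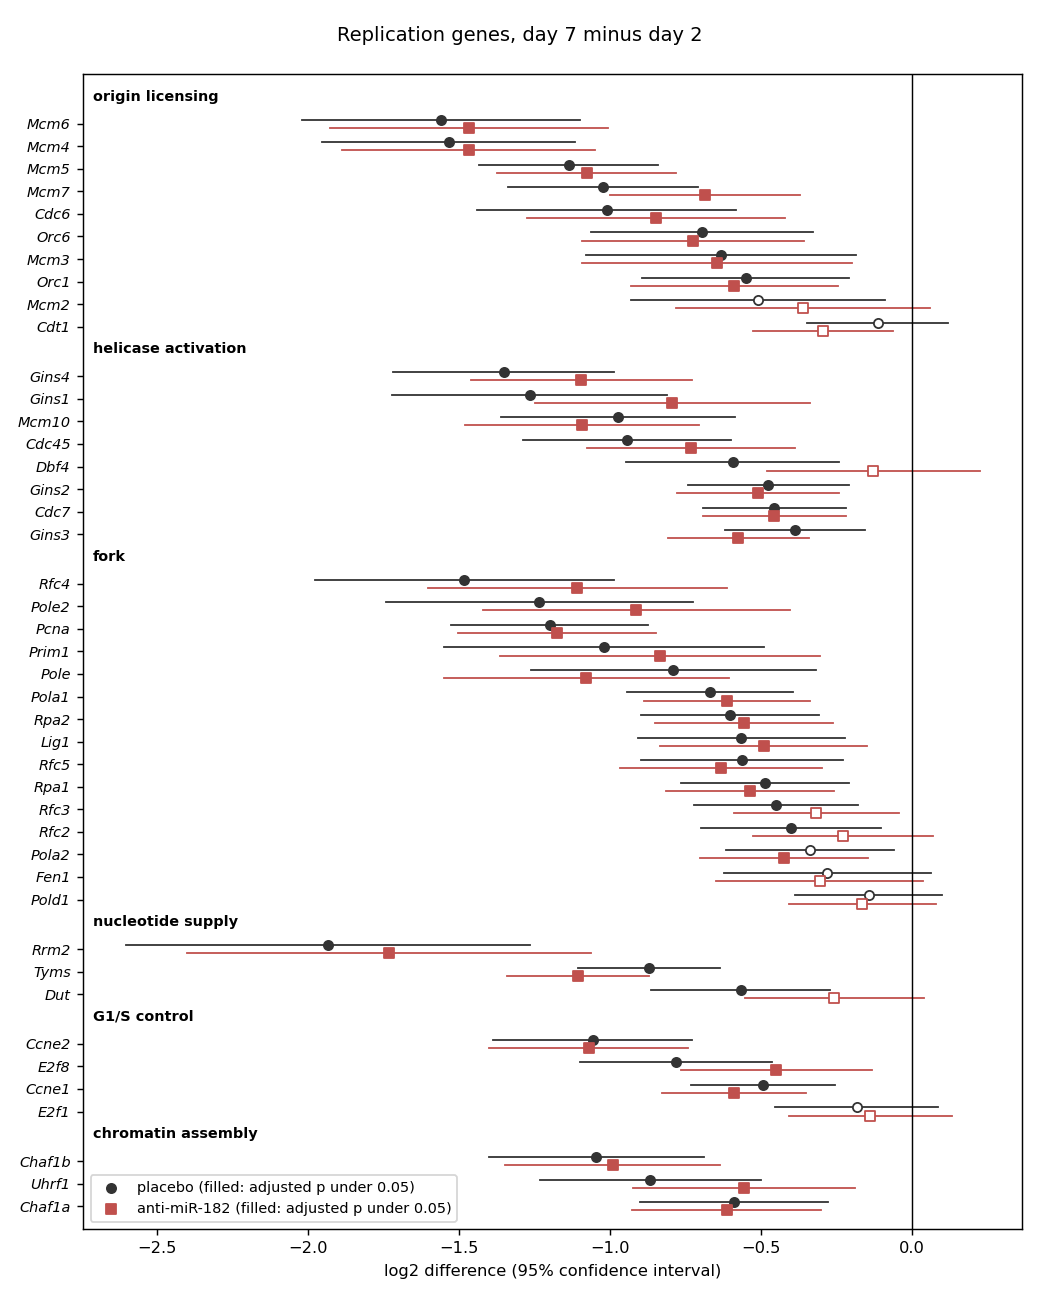
Log2 difference between day 7 and day 2 for each of the 43 replication genes, by role, in placebo (circles) and under anti-miR-182 (squares), with 95% confidence intervals from limma; filled symbols have an adjusted p under 0.05. All points lie below 0 on the deposited scale, with Rrm2, Mcm6 and Mcm4 farthest left in both treatments and Pold1 and E2f1 near 0.

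Under anti-miR-182 the same comparison gave 34 of 43 members that fell, with 24.9% of all genes falling and 2.68% rising. All 43 differences were below 0, as were 76.4% of all genes, with a median of -0.61 and a range from -1.73 to -0.13. Centring and quantile normalization each left 40 of 43 members below 0, with Dbf4, Pold1 and E2f1 above it, and 22 called lower, against 7.44% and 7.62% of all genes, with medians of -0.43 and -0.44. Falls made up 90.3% of all called genes as deposited, 54.4% after centring and 51.4% after quantile normalization. In both treatments 33 members fell, 4 passed in placebo alone (Dbf4, Rfc2, Rfc3 and Dut), Pola2 passed under anti-miR-182 alone, and 5 passed in neither. Under all 3 scalings and in both treatments 19 members were called lower, those named above for placebo except Gins1, Cdc7, Pole2, E2f8 and Uhrf1. Across the 43 genes the differences of both time courses, which rest on different animals but share the same days, had a Pearson correlation of 0.9 and a Spearman correlation of 0.872, where all genes had a Pearson correlation of 0.8. The difference between the time courses itself was called for 0 of 43 members and 0% of all genes by limma, with 0 members at an unadjusted p under 0.05 (2.7% of all genes below 0 and 1.22% above 0 by that rule). The smallest unadjusted p belonged to Dbf4 (0.0658; difference 0.46, SE 0.23; adjusted p 0.999), so the calls made in 1 treatment alone were not shown to differ between treatments.

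**Figure D2:**
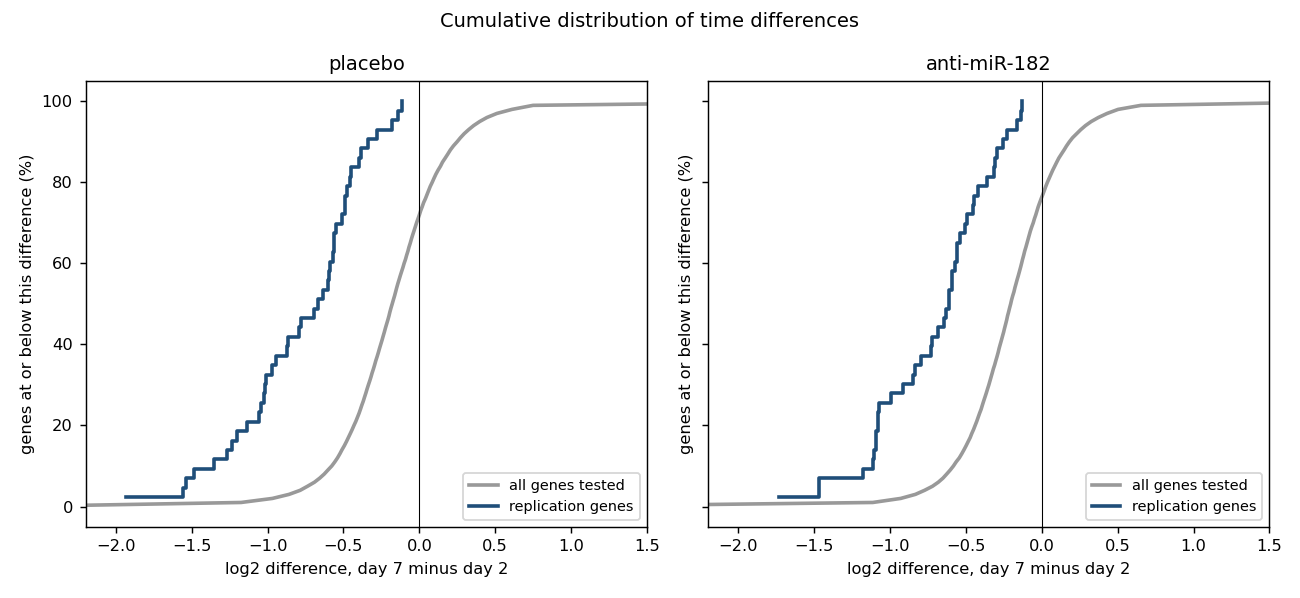
Cumulative share of genes (percent, y axis) at or below each log2 difference between day 7 and day 2 (x axis), for the 43 replication genes (stepped dark line) and all 18166 genes (grey line), in placebo (left) and under anti-miR-182 (right). The dark line lies to the left of the grey one in both panels, with medians of -0.67 and -0.61 against -0.18 and -0.21.

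Sequences ahead of the transcription starts are shown for Mcm2 and Pcna, which mark S phase, and for Mcm5, Mcm6, Gins1 and Tyms. These last fell in both treatments, and all have a match to the octamers named below. Rfc4, Chaf1b, Prim1 and Mcm10 also fell in both treatments but have no match, and they are not shown. RefSeq promoter windows of 300 bases (GRCr8; 250 before the start and 50 after) were found for 37 of the 45 listed genes. Each window was searched on both strands for the octamers TTTCCCGC, TTTCGCGC, TTTGCCGC and TTTGGCGC, forms of the E2F binding site, and for CCAAT, the box bound by NF-Y, whose T can also be the first T of an octamer. An octamer was present for 16 of 37 replication genes (43.2%) and for 2.95% of 19005 protein-coding genes. Replication genes outside the list, described below, carried one in 19 of 41 windows' genes (46.3%), so the octamer is not particular to the members. CCAAT was present for 21 of 37 members (56.8%) and 18 of 41 genes outside the list (43.9%), against 39.8% of protein-coding genes. The stretches below are the 150 bases that end just before the start, written 5′ to 3′ along the gene, with octamers of either strand in capitals; the stretches lie at chr4:122918095-122918244 (Mcm2, minus strand), chr19:13488663-13488812 (Mcm5, plus), chr13:42404353-42404502 (Mcm6, minus), chr3:160184770-160184919 (Gins1, plus), chr9:120776084-120776233 (Tyms, minus) and chr3:139955821-139955970 (Pcna, minus).
Mcm2: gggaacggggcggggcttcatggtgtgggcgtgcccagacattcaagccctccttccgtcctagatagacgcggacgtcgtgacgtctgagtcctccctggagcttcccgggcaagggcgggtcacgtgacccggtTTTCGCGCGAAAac
Mcm5: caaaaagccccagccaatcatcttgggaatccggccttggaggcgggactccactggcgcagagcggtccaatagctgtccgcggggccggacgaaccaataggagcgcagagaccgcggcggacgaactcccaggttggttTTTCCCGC
Mcm6: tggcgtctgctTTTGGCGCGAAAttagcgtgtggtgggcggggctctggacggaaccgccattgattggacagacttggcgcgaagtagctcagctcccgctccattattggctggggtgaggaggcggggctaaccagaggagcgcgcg
Gins1: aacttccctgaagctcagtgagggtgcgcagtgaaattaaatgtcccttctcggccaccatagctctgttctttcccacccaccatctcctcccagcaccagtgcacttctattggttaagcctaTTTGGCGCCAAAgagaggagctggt
Tyms: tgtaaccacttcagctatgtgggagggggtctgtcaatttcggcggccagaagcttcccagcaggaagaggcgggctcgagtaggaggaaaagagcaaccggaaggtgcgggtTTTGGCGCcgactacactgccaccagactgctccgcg
Pcna: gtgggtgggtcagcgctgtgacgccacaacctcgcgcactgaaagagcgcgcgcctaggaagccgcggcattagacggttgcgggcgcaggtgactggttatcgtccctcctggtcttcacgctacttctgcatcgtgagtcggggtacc
In Mcm2, Mcm6 and Gins1 matches of both strands overlap to form 1 run of 12 capitals, and that of Mcm2 begins 14 bases before the start. Mcm5 has 3 matches in its window: one ends at the base before the start, and the other two, which overlap on opposite strands, lie upstream of the stretch shown. The Tyms match begins 37 bases before the start. Pcna has no match in its window, which says only that these letters are absent there. Of the 16 measured members with an octamer 14 fell in placebo (median -0.73), and of the 19 without one 16 fell (median -0.57). Under anti-miR-182 the counts were 13 of 16 (median -0.63) and 14 of 19 (-0.59). A letter match is a description of the sequence and was not tested as a binding site.

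Origin licensing held 10 members, of which 8 fell in placebo (median -0.85) and 8 under anti-miR-182 (median -0.70). These counts are on the deposited scale, where 23.7% of all genes fell in placebo and 24.9% under anti-miR-182. Mcm6, a subunit of the helicase ring, had log2 signals of 8.33, 8.14 and 8.34 in placebo and 8.09, 8.73 and 7.58 under anti-miR-182 at day 2, and of 6.63, 6.86, 6.63 and 6.45, 6.85, 6.69 at day 7. No day 7 array reached the lowest day 2 array, and the day 2 arrays of anti-miR-182 were spread most widely. The fall of Mcm6 was 2.95-fold in placebo (log2 difference -1.56, SE 0.22; limma adjusted p 0.000386) and 2.77-fold under anti-miR-182 (-1.47, SE 0.22; adjusted p 0.000609). Mcm4, its neighbour in the ring, stood at 8.64, 8.38 and 8.64 in placebo and 8.10, 8.65 and 8.11 under anti-miR-182 at day 2, and at 6.88, 7.33, 6.84 and 6.50, 6.76, 7.19 at day 7. These groups did not overlap between days either, and Mcm4 fell by 1.53 (SE 0.20; limma adjusted p 0.000236) and by 1.47 (SE 0.20; adjusted p 0.000318). Mcm5 read 7.47, 7.23 and 7.23 in placebo and 7.12, 7.32 and 6.77 under anti-miR-182 at day 2, and 6.04, 6.25, 6.22 and 6.08, 5.96, 5.94 at day 7. Its falls were 1.14 (SE 0.14; limma adjusted p 0.000194) and 1.08 (SE 0.14; adjusted p 0.000273), with the day 7 arrays close together.

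Other subunits and loaders fell less. Mcm7 fell by 1.02 in placebo and 0.68 under anti-miR-182, the loader Cdc6 by 1.01 and 0.85, Orc6 by 0.70 and 0.72, Mcm3 by 0.63 and 0.65, and Orc1, the largest subunit of the origin recognition complex, by 0.55 and 0.59 (limma adjusted p from 0.000505 to 0.0367 over the 10 tests). Mcm3 and Orc1 lost their calls in both treatments after centring and after quantile normalization (limma adjusted p 0.072 to 0.207). Orc6 lost its placebo call after quantile normalization (0.066). Mcm2 and Cdt1 passed in neither time course. Mcm2 signals were 7.29, 7.28 and 7.31 in placebo and 7.03, 7.50 and 6.48 under anti-miR-182 at day 2, and 6.56, 6.94, 6.86 and 6.49, 6.68, 6.75 at day 7. The placebo arrays of Mcm2 did not overlap between days (difference -0.51, SE 0.20; limma adjusted p 0.0656), whereas the third anti-miR-182 array of day 2 lay below all day 7 arrays (difference -0.36, SE 0.20; adjusted p 0.179). Without that array the adjusted p of Mcm2 was 0.0162 in placebo and 0.0138 under anti-miR-182, and without the second anti-miR-182 array of day 2 it was 0.0242 in placebo. Cdt1, the loading factor that is destroyed once S phase begins, read 5.98, 6.04 and 6.12 in placebo and 6.11, 6.16 and 5.96 under anti-miR-182 at day 2, and 5.77, 6.05, 5.99 and 5.76, 5.77, 5.82 at day 7. Its differences were -0.11 (SE 0.11; limma adjusted p 0.451), which became 0.04 after centring, and -0.29 (SE 0.11; adjusted p 0.0567). The second of these was called without the third anti-miR-182 array of day 2 (adjusted p 0.0382) and with array weights (0.0318).

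**Figure D3:**
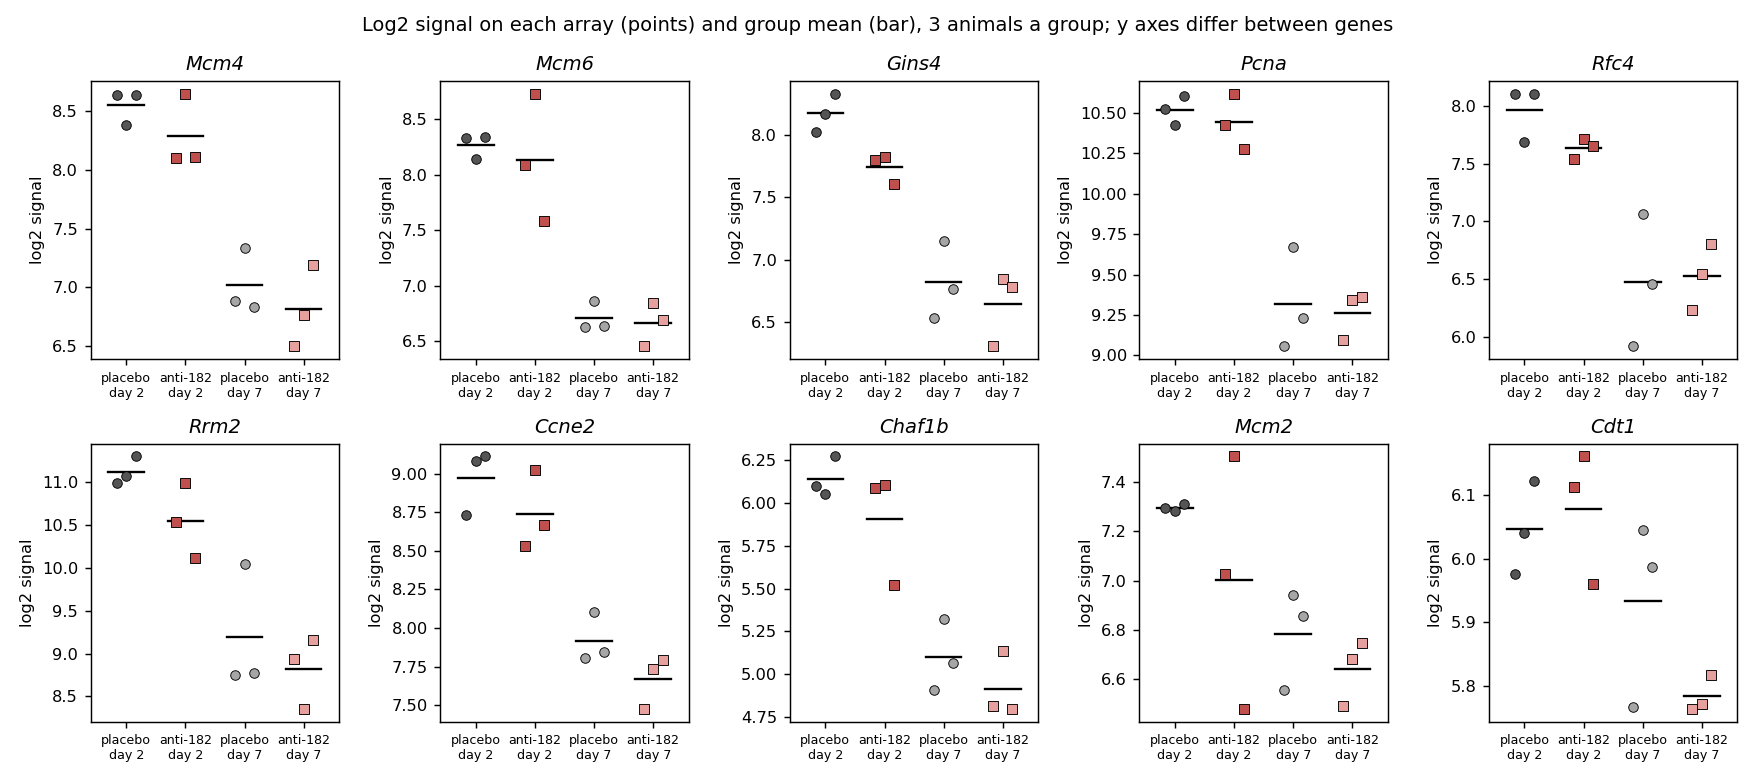
Log2 signal (y axis, scaled for each gene) on each array of the 4 groups for 10 replication genes; points are animals, from left to right replicates 1 to 3, and bars are group means. In Mcm4, Mcm6, Gins4, Pcna, Rfc4, Rrm2, Ccne2 and Chaf1b all day 7 arrays lie below all day 2 arrays of the same treatment, while the day 2 arrays of Mcm2 under anti-miR-182 run from 6.48 to 7.50.

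Of the 8 genes of helicase activation, 8 fell in placebo (median -0.77) and 7 under anti-miR-182 (median -0.65). On this deposited scale 23.7% and 24.9% of all genes fell. Centring and quantile normalization each removed the calls of Gins2, Gins3 and Dbf4 in placebo and of Gins1, Gins2 and Cdc7 under anti-miR-182. Gins4, a subunit of the GINS complex, read 8.03, 8.16 and 8.33 in placebo and 7.80, 7.82 and 7.61 under anti-miR-182 at day 2, and 6.54, 7.15, 6.77 and 6.31, 6.85, 6.78 at day 7. It fell by 1.35 (SE 0.17; limma adjusted p 0.000224) and by 1.10 (SE 0.17; adjusted p 0.000901), without overlap between days. Gins1, another subunit, had signals of 6.51, 6.29 and 6.84 in placebo and 6.35, 6.22 and 5.88 under anti-miR-182 at day 2, and of 5.33, 5.73, 4.78 and 5.20, 5.32, 5.54 at day 7. Its fall was 1.27 in placebo (SE 0.21; limma adjusted p 0.00134) and 0.79 under anti-miR-182 (SE 0.21; adjusted p 0.0152), and the second of these calls was lost without the second anti-miR-182 array of day 2 (adjusted p 0.0521) or the first of day 7 (0.0568). Mcm10, which helps to open the helicase, read 7.12, 7.05 and 7.28 in placebo and 7.05, 7.34 and 6.75 under anti-miR-182 at day 2, and 5.81, 6.24, 6.48 and 5.73, 6.16, 5.97 at day 7. Both treatments showed a similar step here, -0.97 (SE 0.18; limma adjusted p 0.00231) and -1.09 (SE 0.18; adjusted p 0.00129). Cdc45, which activates the ring together with the GINS complex, fell by 0.94 and 0.73, Gins2 by 0.48 and 0.51, the kinase Cdc7 by 0.46 and 0.46, and Gins3 by 0.39 and 0.57. Dbf4, the partner of Cdc7, fell by 0.59 in placebo (limma adjusted p 0.0175). Its placebo difference was -0.44 after centring (limma adjusted p 0.0611) and -0.33 after quantile normalization (0.136). Under anti-miR-182 the difference of Dbf4 was -0.13 (limma adjusted p 0.582), which became 0.06 after centring and 0.09 after quantile normalization.

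At the fork, 12 of 15 members fell in placebo and 11 under anti-miR-182, with a median of -0.56 in each. These counts are on the deposited scale, where 23.7% and 24.9% of all genes fell. After quantile normalization the placebo calls of Prim1, Rfc2, Rfc3, Rfc5, Rpa1 and Lig1 were lost. Centring removed the same placebo calls except that of Prim1. Under anti-miR-182 either rescaling removed the calls of Pola2, Prim1, Pole2, Rpa1 and Lig1. Pcna, the sliding clamp that tethers polymerases to DNA, had signals of 10.53, 10.43 and 10.61 in placebo and 10.43, 10.62 and 10.28 under anti-miR-182 at day 2, and of 9.06, 9.67, 9.23 and 9.09, 9.34, 9.36 at day 7. Every day 7 array lay below every day 2 array, and Pcna fell 2.3-fold in placebo (log2 difference -1.20, SE 0.15; limma adjusted p 0.000236) and 2.26-fold under anti-miR-182 (-1.18, SE 0.15; adjusted p 0.000278). Rfc4, a subunit of the clamp loader, read 8.10, 7.68 and 8.10 in placebo and 7.54, 7.72 and 7.65 under anti-miR-182 at day 2, and 5.92, 7.06, 6.46 and 6.23, 6.54, 6.81 at day 7. The 3 placebo animals of day 7 differed in Rfc4 by more than 1 on the log2 scale, and the falls were 1.48 (SE 0.23; limma adjusted p 0.00083) and 1.11 (SE 0.23; adjusted p 0.00428). Pole2, a small subunit of the leading-strand polymerase epsilon, read 6.29, 6.41 and 6.66 in placebo and 6.09, 6.53 and 5.92 under anti-miR-182 at day 2, and 4.89, 5.91, 4.85 and 5.16, 5.29, 5.35 at day 7. Its second placebo array of day 7 was the high one, close to the lowest arrays of day 2. Pole2 fell by 1.23 (SE 0.24; limma adjusted p 0.00274) and by 0.91 (SE 0.24; adjusted p 0.0131, and 0.0636 without the second anti-miR-182 array of day 2).

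Among the other polymerase genes, the primase subunit Prim1 fell by 1.02 in placebo and 0.83 under anti-miR-182, Pole by 0.79 and 1.08, and Pola1, the catalytic subunit of polymerase alpha, by 0.67 and 0.61. The single-strand binding proteins Rpa2 (0.60 and 0.56) and Rpa1 (0.49 and 0.54), the loader subunit Rfc5 (0.56 and 0.63) and the ligase Lig1 (0.56 and 0.49) fell in both treatments. Rfc3 (-0.45 and -0.32) and Rfc2 (-0.40 and -0.23) passed in placebo alone, and Pola2 (-0.34 and -0.42) under anti-miR-182 alone. Rfc3 was also called under anti-miR-182 with array weights (limma adjusted p 0.0331) or without the third anti-miR-182 array of day 2 (0.0386), and Pola2 in placebo with array weights (0.0333) or without the third placebo array of day 7 (0.0462). The members with no call were Fen1, the flap endonuclease, at -0.28 and -0.31 (limma adjusted p 0.201 and 0.164), and Pold1, the catalytic subunit of polymerase delta, at -0.14 and -0.16 (adjusted p 0.356 and 0.291). Pold1 signals ran from 6.39 to 6.51 in placebo and from 6.28 to 6.60 under anti-miR-182 at day 2, and from 6.19 to 6.38 and 6.16 to 6.33 at day 7. After centring, the Pold1 difference was 0.0055 in placebo and 0.021 under anti-miR-182, so its sign depended on the scaling.

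Nucleotide supply was measured by 3 genes. Among the rows used, Rrm2, the regulated subunit of ribonucleotide reductase, showed the largest difference of the 43 members in both treatments. Its signals were 10.99, 11.07 and 11.30 in placebo and 10.53, 11.00 and 10.11 under anti-miR-182 at day 2, and 8.75, 10.05, 8.77 and 8.94, 8.35, 9.16 at day 7. The second placebo array of day 7 was the highest of that day, yet all day 7 arrays stayed below all day 2 arrays. Rrm2 fell 3.82-fold in placebo (log2 difference -1.93, SE 0.31; limma adjusted p 0.00103) and 3.32-fold under anti-miR-182 (-1.73, SE 0.31; adjusted p 0.00198). Tyms, thymidylate synthase, had closely grouped signals of 9.16, 9.02 and 9.13 in placebo and 9.12, 9.25 and 9.32 under anti-miR-182 at day 2, and of 8.12, 8.35, 8.21 and 8.02, 8.11, 8.24 at day 7. With that small spread, falls of 0.87 (SE 0.11; limma adjusted p 0.000224) and 1.11 (SE 0.11; adjusted p 8.97e-05) gave Tyms the smallest adjusted p of any member under anti-miR-182, while in placebo that of Mcm5 was smaller. Dut, which removes dUTP, read 8.15, 8.25 and 8.21 in placebo and 7.89, 8.01 and 7.71 under anti-miR-182 at day 2, and 7.63, 7.94, 7.34 and 7.59, 7.59, 7.65 at day 7. Dut fell by 0.57 in placebo (limma adjusted p 0.00955) and differed by -0.26 under anti-miR-182 (adjusted p 0.177). Its placebo call was lost after quantile normalization (limma adjusted p 0.119).

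Among the 4 genes of G1/S control, Ccne2, Ccne1 and E2f8 fell in both treatments on the deposited scale. There 23.7% of all genes fell in placebo and 24.9% under anti-miR-182. Ccne2, the cyclin E that activates Cdk2 at the G1/S boundary, read 8.73, 9.08 and 9.11 in placebo and 8.53, 9.02 and 8.67 under anti-miR-182 at day 2, and 7.80, 8.10, 7.84 and 7.48, 7.74, 7.80 at day 7. Its falls were nearly equal, 1.06 (SE 0.15; limma adjusted p 0.000545) and 1.07 (SE 0.15; adjusted p 0.000544). E2f8, a repressor of E2F targets that is itself induced in S phase, read 7.07, 6.77 and 6.96 in placebo and 6.64, 6.66 and 6.18 under anti-miR-182 at day 2, and 6.03, 6.14, 6.27 and 5.83, 6.19, 6.11 at day 7. E2f8 fell by 0.78 in placebo (SE 0.15; limma adjusted p 0.00251) and by 0.45 under anti-miR-182 (SE 0.15; adjusted p 0.0376, and 0.0505 to 0.146 without any 1 of 5 arrays). Those 5 arrays were the first and second anti-miR-182 arrays of day 2, the first and the third of day 7 and the third placebo array of day 2. The call of E2f8 under anti-miR-182 was also lost after centring (limma adjusted p 0.185) and after quantile normalization (0.18). E2f1, an activator of the family, had no call: its signals ran from 5.33 to 5.63 in placebo and from 5.20 to 5.54 under anti-miR-182 at day 2, and from 5.14 to 5.40 and 5.13 to 5.32 at day 7. The differences of E2f1 were -0.18 and -0.14 (limma adjusted p 0.289 and 0.432), and the second was 0.05 after centring.

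The 3 genes of chromatin assembly fell in both treatments on the deposited scale, where 23.7% of all genes fell in placebo and 24.9% under anti-miR-182. Chaf1b, a subunit of chromatin assembly factor 1, read 6.10, 6.05 and 6.27 in placebo and 6.09, 6.10 and 5.52 under anti-miR-182 at day 2, and 4.90, 5.32, 5.06 and 4.81, 5.13, 4.79 at day 7. It fell by 1.05 (SE 0.17; limma adjusted p 0.00093) and 0.99 (SE 0.17; adjusted p 0.00136), its partner Chaf1a by 0.59 and 0.61. Uhrf1, which brings the maintenance DNA methyltransferase to new DNA, read 7.30, 7.11 and 7.22 in placebo and 7.04, 7.28 and 6.50 under anti-miR-182 at day 2, and 6.24, 6.48, 6.30 and 6.56, 6.43, 6.17 at day 7. The third anti-miR-182 array of day 2 overlapped the day 7 arrays, and Uhrf1 fell by 0.87 (SE 0.17; limma adjusted p 0.00323) and 0.56 (SE 0.17; adjusted p 0.028). The second of these calls was lost (adjusted p 0.0531 to 0.127) without the first or second anti-miR-182 array of day 2 or the second or the third of day 7. That call was also lost after centring (limma adjusted p 0.118) and after quantile normalization (0.103).

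**Figure D4:**
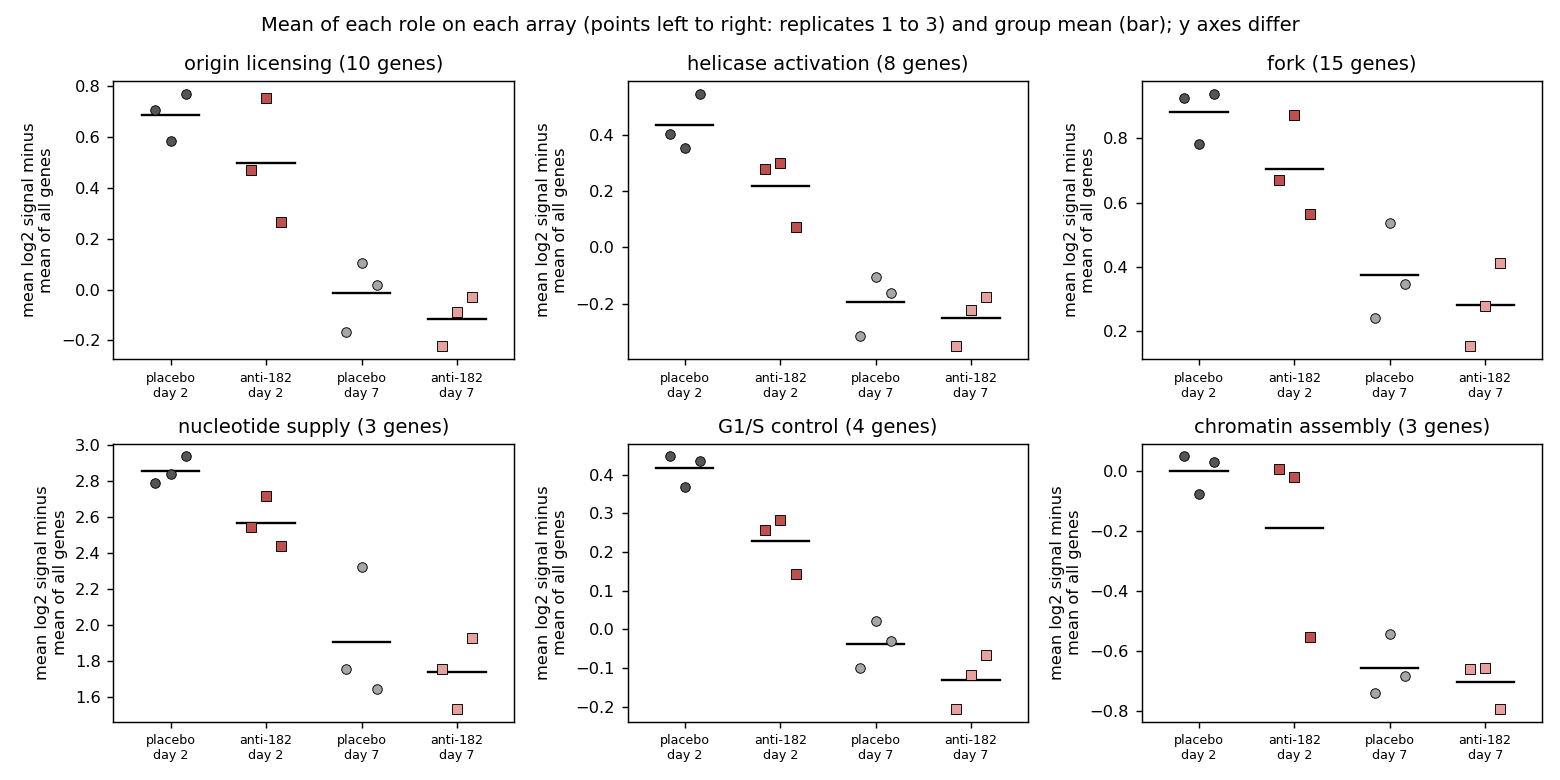
Mean log2 signal of each role on each array minus the mean of all genes on that array (y axis, scaled for each role), with group means as bars and replicates 1 to 3 from left to right. In all 6 roles every day 7 array lies below every day 2 array of the same treatment, and the third anti-miR-182 array of day 2 is the lowest of its group.

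Of the 43 members, Mcm3, Mcm4, Prim1 and Rrm2 had a second row with the same symbol alone, which was not used above. All of these second rows were lower at day 7: Mcm4 (-2.05 and -1.76), Rrm2 (-1.71 and -1.77), Prim1 (-1.13 and -0.91) and Mcm3 (-0.73 and -0.95) in placebo and under anti-miR-182. That Mcm4 row fell further than the Rrm2 row used above in both treatments. Between treatments 2 signs changed with the row. The second Mcm4 row was higher under anti-miR-182 at day 7 (0.11, against -0.20 for the row used), and the second Mcm3 row at day 2 (0.02, against -0.03).

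Replication genes outside the list were read from 51 further genes, of which 48 were measured. In placebo 28 of 48 fell and 0 rose, with a median of -0.54, and under anti-miR-182 27 fell and 0 rose, with a median of -0.53. All counts here, also those of G2 and mitosis genes, are on the deposited scale. There 23.7% of all genes fell and 4.22% rose in placebo, and 24.9% fell and 2.68% rose under anti-miR-182. The largest falls in placebo were those of Top2a, the topoisomerase that untangles sister DNA (-1.80; limma adjusted p 7.68e-05), Clspn, a fork checkpoint protein (-1.40), Dtl, which targets Cdt1 for destruction (-1.24), Atad2 (-1.23) and the histone chaperone Asf1b (-1.17). At the other end, Pole4 (0.03), Rb1 (-0.0038), Mcmbp (-0.01), Slbp (-0.02) and Chtf18 (-0.09) had no call. Of 14 measured genes of G2 and mitosis 14 fell in each treatment, with medians of -1.53 and -1.43, among them the cyclin Ccnb1 (-2.32 and -2.22) and the kinase Cdk1 (-2.16 and -2.06).

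Markers of other cells were also read between days, on the deposited scale only. There 23.7% of all genes fell and 4.22% rose in placebo, and 24.9% fell and 2.68% rose under anti-miR-182. Among 10 proximal tubule markers 6 fell in placebo (median -0.45) and 2 under anti-miR-182 (median -0.32), with means from 9.90 to 10.46 on the 6 arrays of day 2, and from 9.50 to 9.70 in placebo and 9.34 to 10.16 under anti-miR-182 at day 7. Of 7 markers of other kidney cells 2 fell in placebo and 4 under anti-miR-182. Of 10 macrophage markers 4 rose in placebo and 2 under anti-miR-182, and their mean log2 signal ran from 6.92 to 7.24 on the 6 arrays of day 2, and from 7.24 to 8.54 in placebo and 7.34 to 7.41 under anti-miR-182 at day 7. Of 10 lymphocyte markers 5 rose and 1 fell in placebo, and 0 rose and 1 fell under anti-miR-182. Of 8 fibroblast markers 2 rose in placebo and 1 under anti-miR-182, with means from 7.37 to 7.63 and 7.15 to 7.64 at day 2, and from 7.94 to 8.76 and 7.68 to 7.70 at day 7. Of 5 endothelial markers 1 rose in placebo and 1 fell under anti-miR-182, and of 5 neutrophil markers 1 fell in each. The falls of 2 of 10 proximal tubule markers under anti-miR-182 and 2 of 7 other kidney markers in placebo were near the all-gene shares. So were those of 1 of 5 endothelial markers under anti-miR-182 and 1 of 5 neutrophil markers in each treatment. The part of the marker lists in the falls of the replication genes was not tested.

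Whether the inhibitor changed replication genes was asked within each day. At day 2, 37 of 43 members were lower under anti-miR-182 than under placebo, with a median log2 difference of -0.16 and a range from -0.58 to 0.14, whereas 41.3% of all genes were lower and the median gene differed by 0.03. No member passed in limma (0 of 43; 0% of all genes; lowest adjusted p 0.689), and 4 members, all lower, had an unadjusted p under 0.05, against 2.41% of all genes in that direction. Those were E2f8 (-0.44, SE 0.15; unadjusted limma p 0.0105), Dbf4 (-0.42, SE 0.16; 0.0222), Gins4 (-0.43, SE 0.17; 0.0243) and Dut (-0.34, SE 0.14; 0.0295), and Lig1 came next (-0.33, SE 0.16; 0.0597). Dbf4 read 7.42, 7.89 and 7.40 under anti-miR-182 against 7.89, 7.96 and 8.13 in placebo, so its highest anti-miR-182 array came close to the lowest placebo array. In E2f8, Gins4, Dbf4, Dut and Mcm7 every anti-miR-182 array was below every placebo array (5 of 43 members, 4.24% of all genes). The widest difference was that of Rrm2 (-0.58, SE 0.31), with overlapping groups.

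The day 2 median changed with single arrays and with their weights. The median SD of the members within a group was 0.125 in placebo and 0.271 under anti-miR-182 at day 2, and 0.16 and 0.137 at day 7; over all genes these values were 0.112, 0.179, 0.146 and 0.137. Within the anti-miR-182 group of day 2 the second array was the highest in 35 of 43 members and the third the lowest in 31. The mean log2 signal of the 43 members was 7.23, 7.45 and 7.03 on these 3 arrays, against 7.45, 7.31 and 7.47 in placebo. Without the third anti-miR-182 array the median difference was -0.045, and without the second it was -0.32. With all arrays kept but weighted by their fit, it was -0.042. The G2 and mitosis genes had a median difference of -0.33 at day 2, with 14 of 14 below 0 and 0 called.

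**Figure D5:**
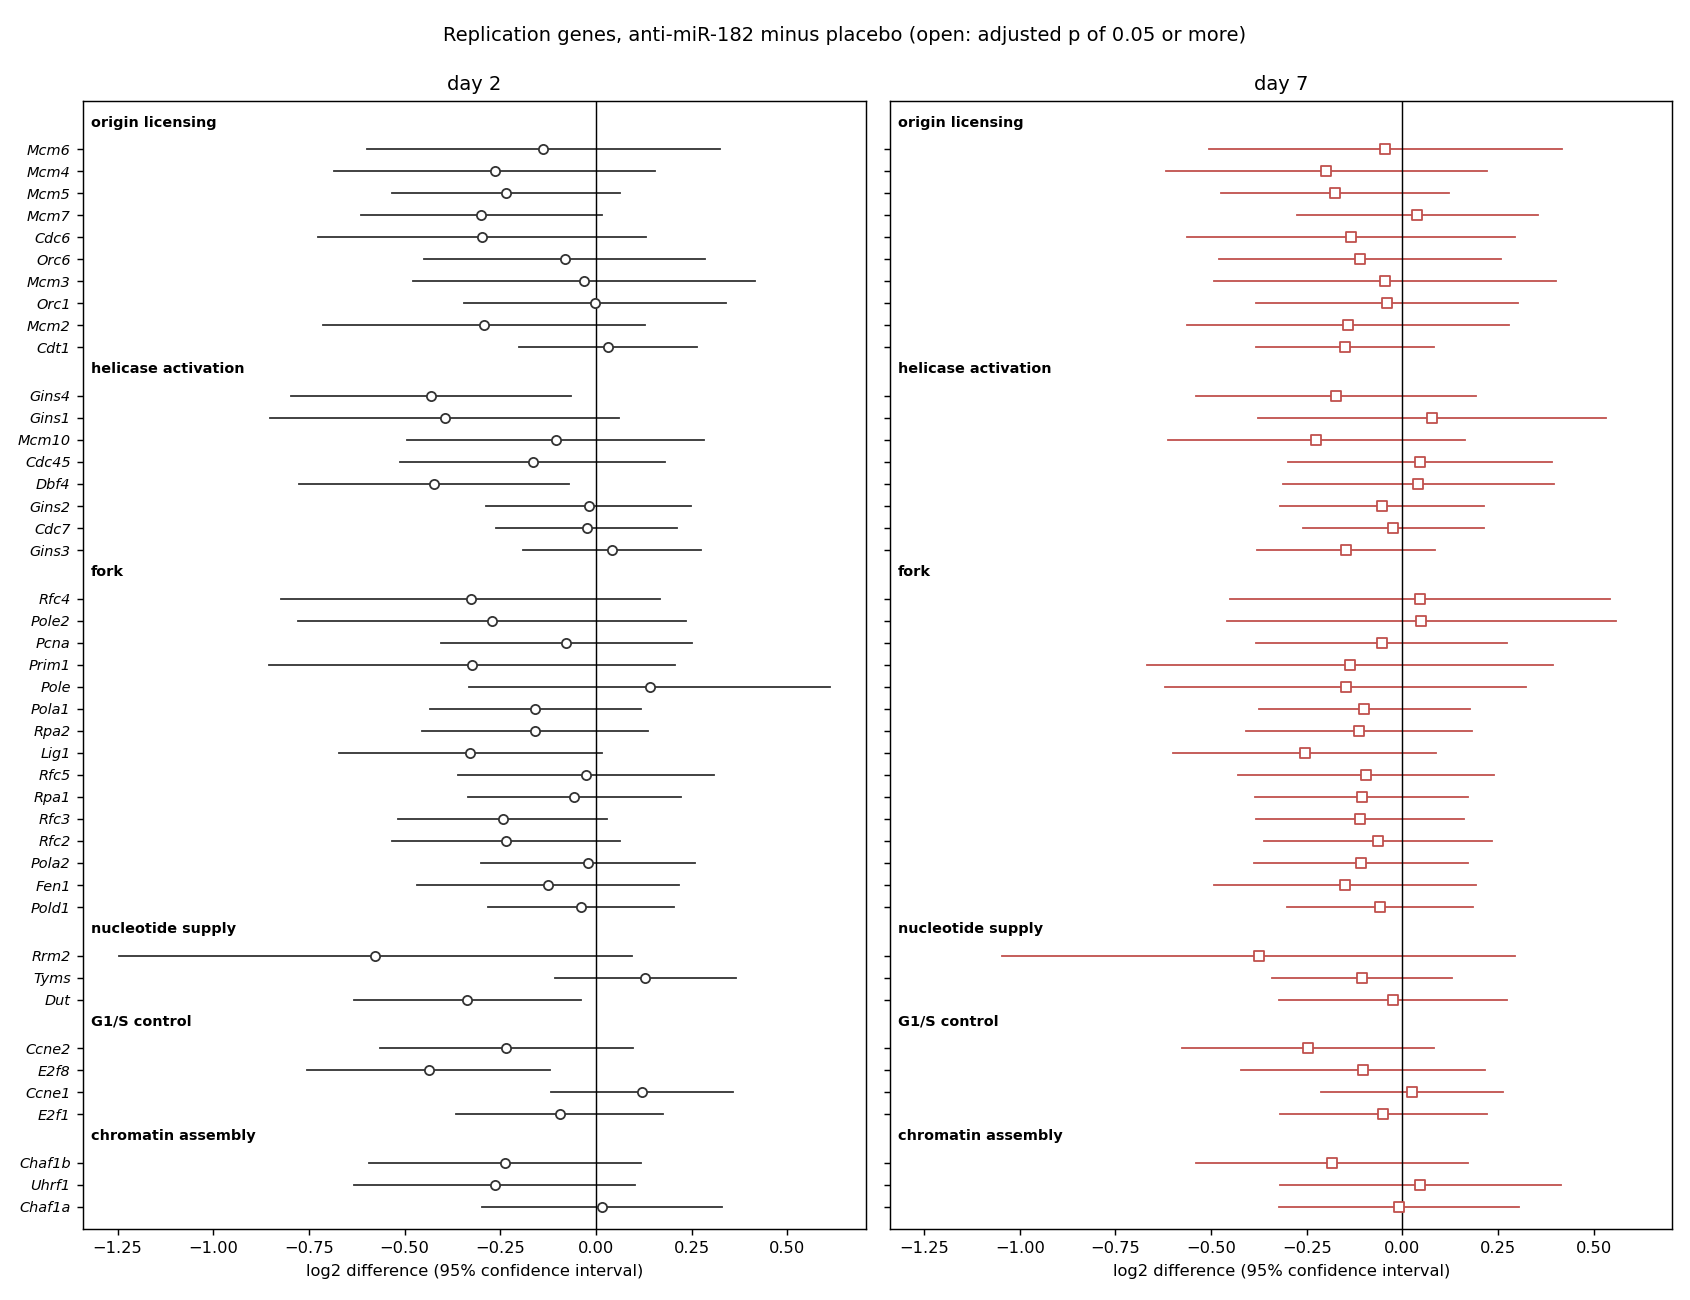
Log2 difference between anti-miR-182 and placebo for each of the 43 replication genes at day 2 (left) and day 7 (right), with 95% confidence intervals from limma; open symbols have an adjusted p of 0.05 or more. All symbols are open, with 37 of 43 points below 0 at day 2 and 35 of 43 at day 7.

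At day 7, 35 of 43 members were below 0, with a median of -0.10 and a range from -0.38 to 0.08, against 50.2% of all genes. Again 0 of 43 members and 0% of all genes passed in limma, and 0 members had an unadjusted p under 0.05, against 1.66% of all genes lower and 1.61% higher by that rule. The 5 smallest p-values belonged to Ccne2 (-0.25, SE 0.15; unadjusted limma p 0.13), Lig1 (-0.26, SE 0.16), Mcm5 (-0.18, SE 0.14), Cdt1 (-0.15, SE 0.11) and Gins3 (-0.15, SE 0.11). Lig1, the ligase that joins Okazaki fragments, read 7.15, 6.97 and 7.15 under anti-miR-182 and 7.17, 7.45 and 7.41 in placebo. In Lig1 and Ccne2 the arrays of both groups did not overlap (2 of 43 members, 3.75% of all genes). The median was -0.024 without the first anti-miR-182 array of day 7, -0.042 without the second placebo array and -0.16 without the first placebo array.

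Markers of other cells also differed between treatments, with 0 called in limma in each marker list at either day. At day 2, 6 of 7 markers of other kidney cells were higher under anti-miR-182 than under placebo (median 0.29), as were 5 of 5 endothelial markers (median 0.16) and 8 of 10 lymphocyte markers (median 0.12), while the medians of the proximal tubule, macrophage, fibroblast and neutrophil lists ran from -0.09 to 0.02. The mean signal of the other kidney markers ran from 9.63 to 9.89 under anti-miR-182 and from 9.44 to 9.63 in placebo. At day 7, 8 of 8 fibroblast markers were lower under anti-miR-182 (median -0.43; 3 with an unadjusted limma p under 0.05), among them the collagen gene Col1a1 (-0.60, SE 0.18). Of the macrophage markers 10 of 10 were lower (median -0.37, 1 with such a p), and of the proximal tubule markers 9 of 10 were higher (median 0.30). An unadjusted limma p under 0.05 was also reached at day 7 by 1 proximal tubule, 1 lymphocyte and 1 endothelial marker. At day 2 it was reached by 2 lymphocyte markers, 1 endothelial marker and 1 other kidney marker. Of all 18166 genes 593 passed that rule at day 7 (1.66% lower, 1.61% higher) and 1201 at day 2. The macrophage means of day 7 were 7.24, 8.54 and 7.62 in placebo, against 7.34 to 7.41 under anti-miR-182. Those of the fibroblast markers were 7.94, 8.76 and 7.95, against 7.68 to 7.70. Both lists were highest on the second placebo array, which was also the highest of its group in 26 of 43 replication genes. The part of these markers in the treatment differences of the replication genes was not tested.

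Averaged over both days, 40 of 43 members were below 0, with a median of -0.13, against 44.5% of all genes. This median was -0.054 without the third anti-miR-182 array of day 2, -0.19 without the second, and -0.077 with array weights. In limma 0 of 43 members passed (1 of all genes, 0.0055%; lowest adjusted p of a member 0.888). An unadjusted p under 0.05 was reached, with 2.03% of all genes lower by that rule, by E2f8 (-0.27, SE 0.10), Lig1 (-0.29, SE 0.11), Gins4 (-0.30, SE 0.12), Ccne2 (-0.24, SE 0.11) and Rrm2 (-0.48, SE 0.22). Across the 43 genes the treatment differences of both days, which come from different animals, had a Pearson correlation of 0.143 and a Spearman correlation of 0.0433. With 3 animals a group the 95% confidence interval of a member reached a median of 0.33 to either side at each day. The lowest bound was -1.25 and the highest 0.61 at day 2, and -1.05 and 0.56 at day 7. These intervals are not adjusted for the number of genes tested. At the adjusted threshold larger treatment differences than that half-width also went uncalled, such as that of E2f8 at day 2 (-0.44). A difference of that size in a single member could therefore be missed with this number of arrays.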

How the data were processed

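The deposited table holds 36685 rows and 12 arrays of log2 signals, from 1.48 to 13.4, used as deposited. Per the labels' protocols, 200 ng of Trizol-extracted RNA was amplified and biotin-labelled. RMA, which corrects background, normalizes and summarises probes, is named in the submitters' processing notes with no version. Rows that carried 1 gene symbol and had no missing value stood for 18166 genes, and 190 rows lacked values on the day 2 arrays. Of a gene's rows (291 genes had several) the one with the highest mean was used.

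Group means (4) were fitted with limma 3.58.1 (R 4.3.3), and 6 contrasts were tested with eBayes (two-sided, Benjamini-Hochberg over all genes, threshold 0.05). The fit was also run on simulated data with independent noise for each gene. That simulation held no shift shared by an array or a day, so it does not cover such shifts. Each array is 1 animal by its code, so p-values measure the spread between animals. The gene list, its roles, the other lists and the comparisons were chosen with earlier results of these data known. Genes given with all values are Mcm2, Pcna, Cdt1, Dut and the 2 or 3 members of each role with the largest placebo time difference. Members with no call or the smallest treatment p-values are given at least by their differences. Among these, Pold1 and E2f1 have ranges, Dbf4 its values of day 2 and Lig1 those of day 7. Alternatives were a trended or robust eBayes, each day fitted alone, array weights, centring, quantile normalization, leaving out dim genes, the mean of a gene's rows and each array left out in turn. Promoters and the miRNA are RefSeq's (GRCr8).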

Additional observations from a re-analysis of the deposited data

How the results depend on the processing

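Quantile normalization called 24 of 43 replication genes lower between days in placebo and 22 under anti-miR-182, and centring called 22 under anti-miR-182, against 37 and 34 as deposited. Leaving out each array in turn gave 28 to 38 in placebo and 25 to 36 under anti-miR-182, lowest without the first placebo array of day 7 and without the second anti-miR-182 array of day 2. Calls lost without some 1 array were those of Dbf4, Gins2, Gins3, Lig1, Mcm3, Orc1, Pole, Rfc2, Rfc3, Rfc5 and Rpa1 in placebo (limma adjusted p then 0.0502 to 0.184) and of E2f8, Gins1, Lig1, Mcm3, Orc1, Pola2, Pole2, Prim1, Rfc5 and Uhrf1 under anti-miR-182 (0.0505 to 0.146). Calls were gained in placebo for Mcm2 and Pola2, and under anti-miR-182 for Cdt1, Mcm2 and Rfc3, with array weights (0.0231 to 0.0333) or without some 1 array (0.0138 to 0.0462). The differences of 4 genes turned sign where they had no call: after centring Cdt1 (0.036) and Pold1 (0.0055) in placebo and Pold1 (0.021), E2f1 (0.047) and Dbf4 (0.056) under anti-miR-182, and after quantile normalization Pold1 (0.027), E2f1 (0.034) and Dbf4 (0.091) under anti-miR-182; the cause was not tested. No member was called for treatment under any alternative (0 of 43 each). Without 1 array the treatment median ran from -0.32 to -0.045 at day 2, from -0.16 to -0.024 at day 7 and from -0.19 to -0.054 averaged over both days; with array weights it was -0.042 at day 2 and -0.077 averaged. No paired analysis was possible because the labels give no replicate numbers shared between groups. The number of arrays, 3 a group, limits the precision.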
